A study of Mus musculus with 9 samples.

Results

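The cytosolic heat shock genes and Hmox1 were followed across mouse olfactory sensory neurons sorted by the odorant receptor they carried. The 10 genes, taken by their symbols, were Hspa1a, Hspa1b, Hspa8, Hsp90aa1, Hsp90ab1, Hspb1, Hsph1, Dnajb1, Dnaja1 and Hmox1, out of 55291 genes in the tables. Neurons came from mice with the genotype Olfr1507-IRES-GFP, Olfr73-IRES-GFP or Olfr160-IRES-mCherry, in which a fluorescent protein is made from the same transcript as 1 odorant receptor. All were taken from the main olfactory epithelium, dissociated in warm papain, and sorted for bright reporter and low DAPI before polyadenylated RNA was sequenced. Each genotype had 3 libraries. Age, sex and treatment were not given in the sources used here, nor whether the 3 libraries came from separate animals, so p-values measure the spread between these libraries, which may be technical. The Olfr160 group differed from the others in its reporter as well as its receptor, and the reporter and the receptor cannot be told apart.

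Libraries held 21031793 to 36230606 counts in Olfr1507, 20394345 to 21278859 in Olfr73 and 17212807 to 22590535 in Olfr160. The tagged receptor made up 85.1% to 94.7% of all odorant receptor counts in Olfr1507 libraries, 22.8% to 32.8% in Olfr73 libraries and 2.08% to 10.1% in Olfr160 libraries. The 11 markers of mature olfactory neurons summed to 100787 to 103839 normalised CPM (CPM taken over the TMM-scaled library size) in Olfr1507, 52022 to 55198 in Olfr73 and 26003 to 45249 in Olfr160. The 13 markers of sustentacular and gland cells ran the other way, at 452 to 715, 4706 to 8702 and 22751 to 39723 normalised CPM in the same 3 groups. The tagged receptor was thus counted in every library, but most odorant receptor counts in Olfr73 and Olfr160 libraries came from other receptors. The Olfr160 libraries also held the highest levels of supporting-cell RNA. Changes are given with TMM scaling, under which the median of the 16399 tested genes was -0.14, -0.15 and -0.01 on the log2 scale for Olfr1507 over Olfr160, Olfr1507 over Olfr73 and Olfr73 over Olfr160. Scaling instead to 18 genes of olfactory transduction moved these medians to -1.72, -1.04 and -0.70. Directions that turned under that scaling, with a call under either scaling, are therefore named beside the gene or in the section on processing.

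Heat shock proteins are chaperones that bind unfolded or partly folded proteins and release them for folding in cycles driven by ATP. Hsp70 proteins (Hspa1a, Hspa1b and Hspa8) take clients from J-domain partners (Dnaja1 and Dnajb1) and are recharged by exchange factors such as Hsph1, while Hsp90 proteins (Hsp90aa1 and Hsp90ab1) finish the folding of kinases and receptors, and the small protein Hspb1 holds clients without ATP. Hspa8 and Hsp90ab1 are made in nearly all cells at all times, whereas Hspa1a, Hspa1b, Hspb1 and Dnajb1 are classical targets of heat shock factor 1 under stress. Hmox1 encodes the inducible heme oxygenase, which opens heme to biliverdin, iron and carbon monoxide, and is controlled by Nrf2, which activates it, and Bach1, which represses it.

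Heat shock factor binds repeats of GAA in alternating orientation. The bases before the transcription start were therefore searched, over 250 bases, for a pair of such units, GAANNTTC or TTCNNGAA. Each of these letter strings reads the same on both strands. RefSeq promoters (GRCm38.p6) were found for 6 of the 10 genes, and Hspa8, Hsp90aa1, Hsp90ab1 and Hmox1 had no entry. The start is the RefSeq start nearest to the 5′ end of the GENCODE M21 gene, since RefSeq lists 3 starts for Dnaja1 and 2 each for Hsph1 and Dnajb1. The start used lay 318 bases inside the GENCODE gene for Dnaja1 and 40 bases inside it for Hsph1, so the pair of each lies within the GENCODE gene and not upstream of it. The pair is shown in capitals, 5′ to 3′ on the strand of the gene, because genes that carried it moved in opposite directions with TMM scaling in the comparisons that follow. The whole 250 bases are given for Hspa1a (chr17:34972157-34972406, minus strand), Hspa1b (chr17:34959239-34959488, minus strand) and Dnajb1 (chr8:83607925-83608174, plus strand). The stretch around the pair is given for Hspb1 (chr5:135887776-135887855, plus strand), Hsph1 (chr5:149636351-149636380, minus strand) and Dnaja1 (chr4:40722333-40722362, plus strand).
Hspa1a: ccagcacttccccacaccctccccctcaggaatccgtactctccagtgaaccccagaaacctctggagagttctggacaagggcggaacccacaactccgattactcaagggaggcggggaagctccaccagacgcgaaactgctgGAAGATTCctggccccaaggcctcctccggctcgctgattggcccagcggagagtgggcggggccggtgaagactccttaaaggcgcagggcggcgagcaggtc
Hspa1b: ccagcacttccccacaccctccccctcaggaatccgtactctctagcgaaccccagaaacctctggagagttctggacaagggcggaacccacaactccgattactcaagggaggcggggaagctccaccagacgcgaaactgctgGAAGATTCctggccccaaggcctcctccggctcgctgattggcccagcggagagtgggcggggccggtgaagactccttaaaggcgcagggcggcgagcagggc
Hspb1: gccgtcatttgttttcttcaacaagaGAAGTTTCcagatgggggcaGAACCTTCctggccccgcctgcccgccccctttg
Hsph1: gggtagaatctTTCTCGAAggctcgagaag
Dnaja1: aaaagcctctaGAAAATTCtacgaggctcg
Dnajb1: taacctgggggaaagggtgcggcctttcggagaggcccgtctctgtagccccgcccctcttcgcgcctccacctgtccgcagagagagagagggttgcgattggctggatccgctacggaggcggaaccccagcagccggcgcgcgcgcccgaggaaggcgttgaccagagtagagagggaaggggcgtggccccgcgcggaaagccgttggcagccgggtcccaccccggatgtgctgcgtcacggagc
The pair stood 104 bases before the start in both Hspa1a and Hspa1b, whose windows differed at 3 of 250 bases. It stood 124 bases before the start in Dnaja1, 33 bases before it in Hsph1, and 117 and 97 bases before it in Hspb1. The letters of the pair were not in the Dnajb1 window shown, nor in that of its other RefSeq start. Of the other windows, that of Hsph1 held 1 pair and those of Dnaja1 held 0. Of 27025 promoters of the same length, 12.9% held at least 1 pair. A longer string of 3 units (GAANNTTCNNGAA or TTCNNGAANNTTC) was in 0.4% of the 27025 promoters and in 0 of the 6 windows.

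Compared per unit of transcript length, the levels of the 10 genes spanned more than 3 orders of magnitude. On the authors' TPM scale Hspa8, the constitutive Hsp70, led in every group, with 8614 ± 111 TPM in Olfr1507, 6552 ± 1051 in Olfr73 and 4132 ± 445 in Olfr160 (mean ± SD, n = 3 each). Hsp90ab1, the constitutive Hsp90, came next at 3501 ± 335, 2749 ± 206 and 1849.7 ± 232 TPM in the same order of groups. Dnaja1 (1031 ± 101, 847 ± 106 and 739.6 ± 93.8 TPM) and Hsp90aa1 (931 ± 68.8, 774 ± 103 and 571 ± 16.5 TPM) were the next pair. Those neighbours overlapped in Olfr1507 and Olfr73 libraries, while in Olfr160 libraries the lowest Dnaja1 level, 632 TPM, was above the highest Hsp90aa1 level, 585 TPM. Below them the order depended on the group. In Olfr1507 libraries Hmox1 followed at 148 ± 19.8 TPM, then Hsph1 at 107 ± 18.2, Dnajb1 at 36.05 ± 4.41 and Hspa1a at 3.93 ± 2.39. In Olfr160 libraries Dnajb1 followed at 82.7 ± 7.69 TPM, then Hsph1 at 58.7 ± 10.6, Hmox1 at 29.0 ± 2.93 and Hspa1a at 24.7 ± 11.4. In Olfr73 libraries Hsph1 stood at 71.5 ± 20.0 TPM, Dnajb1 at 41.5 ± 13.8, Hmox1 at 34.4 ± 9.61 and Hspa1a at 12.2 ± 8.76. In that group the libraries of Hsph1 and Dnajb1, and those of Dnajb1 and Hmox1, overlapped, as did Hmox1 and Hspa1a in Olfr160. The 10 genes together took 1.38% to 1.44% of all counts in Olfr1507 libraries, 1.14% to 1.40% in Olfr73 libraries and 0.724% to 0.764% in Olfr160 libraries.

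**Figure D1:**
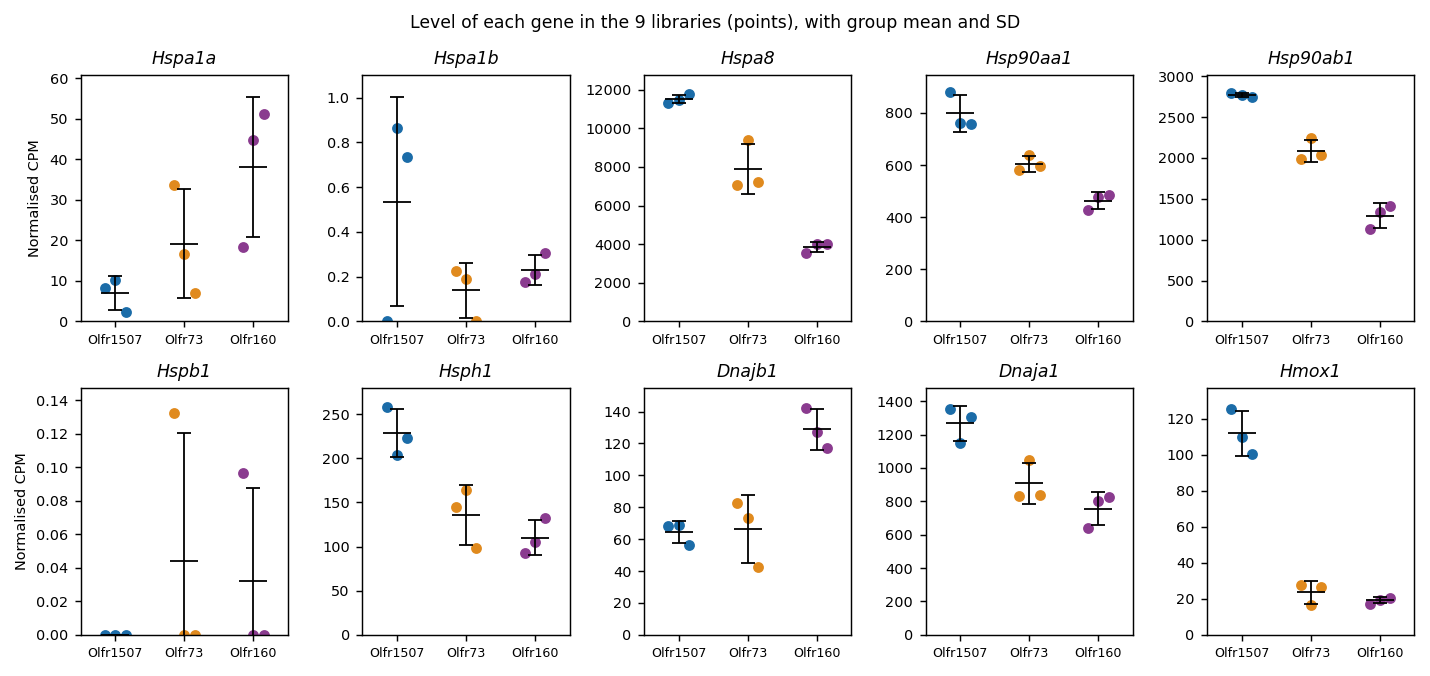
Normalised CPM (y axis, from 0, a separate scale for each gene) of the 10 genes in the 3 libraries of each genotype (points), with the mean (long bar) and SD (whiskers). Hspa8 and Hmox1 were highest in all 3 Olfr1507 libraries, Dnajb1 was highest in all 3 Olfr160 libraries, and Hspb1 and Hspa1b were near 0 throughout.

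Of the 10 genes, 8 passed the filter on low counts. Comparing Olfr1507 with Olfr160, 6 rose and 2 fell at an edgeR adjusted p under 0.05. Across all tested genes 48.4% were called in that comparison, 20.7% higher and 27.7% lower. Comparing Olfr1507 with Olfr73, 6 rose, 0 fell and 2 were not called, against 34.4% of all genes called, 14.5% higher and 19.9% lower. Comparing Olfr73 with Olfr160, 3 rose, 1 fell and 4 were not called, against 17.9% called over all genes, 7.45% higher and 10.5% lower. The median log2 fold change of the 8 genes was 0.92, 0.45 and 0.30 in the 3 comparisons. The test for any difference among the 3 groups called all 8, where it called 50.8% of all genes. Scaled to library size alone the counts were 6 higher and 2 lower, 1 and 0, and 2 and 1. Scaled to the olfactory transduction genes they were 1 higher and 6 lower, 1 and 5, and 0 and 1. The share of calls over all genes that were higher also moved. It was 42.8%, 42.2% and 41.6% in the 3 comparisons with TMM scaling, and 17.7%, 18.2% and 30.6% with library size alone. With the transduction genes it was 0.828%, 3.69% and 1.97%. In Olfr1507 over Olfr160 the counts of the 8 genes were the same with TMM scaling and with library size alone. The 6 calls for Olfr1507 over Olfr73 were 2 without Olfr1507 library 1 or without Olfr73 library 1, and 3 without Olfr1507 library 3 or without Olfr73 library 3. Olfr1507 libraries serve in both comparisons with Olfr1507, and Olfr160 libraries in both with Olfr160, so these counts are not independent of each other. In such bulk samples, fewer cells of a type and less RNA per cell cannot be told apart.

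**Figure D2:**
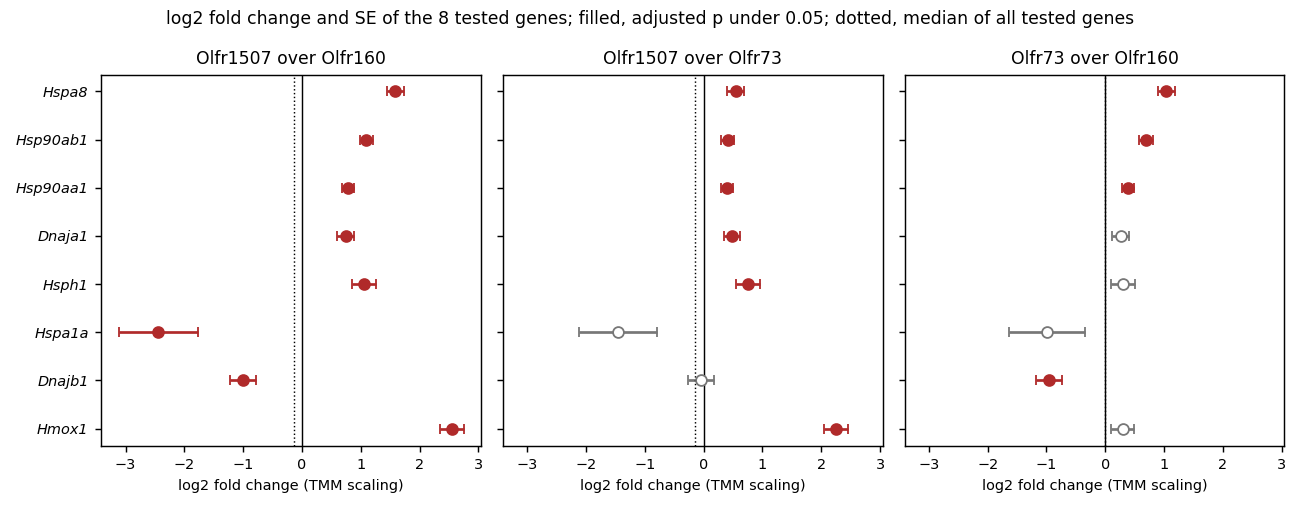
log2 fold change with TMM scaling (x axis) and its SE (whiskers) for the 8 tested genes in the 3 comparisons. Filled red points had an adjusted p under 0.05, and the dotted line is the median of all tested genes. Hspa8, both Hsp90 genes, Dnaja1, Hsph1 and Hmox1 lay to the right for Olfr1507 over Olfr160, and Hspa1a and Dnajb1 to the left.

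Hspa8 (chr9:40800984-40810087, plus strand, GENCODE M21 on mm10), the constitutive Hsp70 that also strips clathrin from vesicles, was the most abundant of the 10. It measured 11314, 11480.0 and 11761 normalised CPM in Olfr1507 libraries, 7046, 9407 and 7233 in Olfr73 libraries, and 3532, 3987 and 3993 in Olfr160 libraries. The 3 groups did not overlap, and Olfr1507 was highest and Olfr160 lowest. Hspa8 rose in Olfr1507 over Olfr160 (log2 fold change 1.59, SE 0.14, adjusted p 4.22e-05), in Olfr1507 over Olfr73 (0.54, SE 0.14, adjusted p 0.0154) and in Olfr73 over Olfr160 (1.04, SE 0.14, adjusted p 0.00308), but with transduction-gene scaling the values were 0.02, -0.34 and 0.36 and none passed the test. With library size alone the second value was 0.23 (adjusted p 0.133). Leaving out Olfr1507 library 3, Olfr73 library 1 or Olfr73 library 3 took the second call past the threshold, to an adjusted p of 0.0539, 0.0582 and 0.0569. Its expected counts were not whole numbers in 9 of 9 libraries, so some of its reads were shared with other loci. The same held for Hsp90aa1 and Dnaja1.

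Both cytosolic Hsp90 genes followed the same order of groups. Hsp90ab1 (chr17:45567775-45573271, minus strand), the constitutive form, measured 2792, 2776 and 2749 normalised CPM in Olfr1507, 1989.7, 2239.5 and 2036 in Olfr73, and 1131, 1338 and 1417 in Olfr160. Hsp90aa1 (chr12:110690605-110702728, minus strand), the more inducible form, measured 879, 759.6 and 755 in Olfr1507, 581, 639.9 and 596 in Olfr73, and 427, 478 and 486 in Olfr160. For each gene the libraries of the 3 groups did not overlap. Hsp90ab1 rose by a log2 fold change of 1.10 (SE 0.12, adjusted p 0.000104) in Olfr1507 over Olfr160, but was lower there with transduction-gene scaling, at -0.45. Hsp90ab1 also rose in Olfr1507 over Olfr73 (0.41, SE 0.12, adjusted p 0.0232) and in Olfr73 over Olfr160 (0.69, SE 0.12, adjusted p 0.00624), where the transduction-gene scaling gave -0.48 and 0.03. Hsp90aa1 rose by 0.78 (SE 0.11, adjusted p 0.000399), 0.40 (SE 0.11, adjusted p 0.0181) and 0.38 (SE 0.11, adjusted p 0.0360) in the 3 comparisons, and with transduction-gene scaling all 3 values turned negative, at -0.78, -0.49 and -0.29. With library size alone the calls of Olfr1507 over Olfr73 were lost, at 0.095 (adjusted p 0.406) for Hsp90ab1 and 0.084 (adjusted p 0.472) for Hsp90aa1, as was that of Hsp90aa1 in Olfr73 over Olfr160 (0.28, adjusted p 0.0563). In Olfr1507 over Olfr73 the Hsp90ab1 call was lost on leaving out any 1 Olfr1507 library or Olfr73 library 1 or 3 (adjusted p 0.0641 to 0.0738), and the Hsp90aa1 call on leaving out Olfr1507 library 1 (0.0764) or Olfr73 library 1 (0.0578). The Hsp90aa1 call of Olfr73 over Olfr160 was lost without Olfr1507 library 2 or 3, any 1 Olfr73 library, or Olfr160 library 1 or 2 (0.0566 to 0.106). The ratio of the pair can be read within a library with no scaling between libraries. On TPM, Hsp90ab1 over Hsp90aa1 was 3.83, 3.83 and 3.60 in Olfr1507, 4.18, 3.44 and 3.16 in Olfr73, and 2.91, 3.18 and 3.61 in Olfr160, and neighbouring groups overlapped. On expected counts it was 3.18 to 3.65, 3.42 to 3.50 and 2.65 to 2.91 in the same groups, so that Olfr160 lay apart.

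Dnaja1 and Hsph1 serve Hspa8, the first as a J-domain partner that delivers clients and the other as an exchange factor of the Hsp110 family. Dnaja1 (chr4:40722150-40737149, plus strand) measured 1351, 1149 and 1303 normalised CPM in Olfr1507, 831, 1049.6 and 841 in Olfr73, and 642, 801 and 827 in Olfr160. Every Olfr1507 library lay above every other library, while Olfr73 and Olfr160 were separated by only a few CPM. Dnaja1 rose in Olfr1507 over Olfr160 (0.75, SE 0.14, adjusted p 0.00258) and over Olfr73 (0.48, SE 0.14, adjusted p 0.0275), with the sign turned to -0.80 and -0.40 by transduction-gene scaling, and was 0.26 (adjusted p 0.226) in Olfr73 over Olfr160. Hsph1 (chr5:149614287-149636376, minus strand) measured 258, 204 and 223 normalised CPM in Olfr1507, 144, 164 and 98.1 in Olfr73, and 93.1, 105 and 132 in Olfr160. The Olfr1507 libraries again stood above the rest, and Olfr73 and Olfr160 overlapped. Hsph1 rose in Olfr1507 over Olfr160 (1.06, SE 0.20, adjusted p 0.00259) and over Olfr73 (0.75, SE 0.20, adjusted p 0.0185), but transduction-gene scaling gave -0.48 and -0.13, and the value in Olfr73 over Olfr160 was 0.30 (adjusted p 0.318). With library size alone the calls over Olfr73 were lost, at 0.17 (adjusted p 0.271) for Dnaja1 and 0.44 (adjusted p 0.0912) for Hsph1. Without Olfr1507 library 1 the adjusted p of the comparison with Olfr73 was 0.0932 for Dnaja1 and 0.0701 for Hsph1, and Dnaja1 also lost it without Olfr1507 library 3 (0.0791), Olfr73 library 1 (0.0843) or Olfr73 library 3 (0.0796).

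Hspa1a, the stress-inducible Hsp70, went against Hspa8, both Hsp90 genes, Dnaja1 and Hsph1 in Olfr1507 over Olfr160 with TMM scaling. Hspa1a (chr17:34969190-34972156, minus strand) measured 8.26, 10.3 and 2.22 normalised CPM in Olfr1507, 33.6, 16.8 and 7.04 in Olfr73, and 18.4, 44.7 and 51.0 in Olfr160. All 3 Olfr1507 libraries were below all 3 Olfr160 libraries, and the Olfr73 libraries spread across the range of both. Hspa1a fell in Olfr1507 relative to Olfr160 (log2 fold change -2.44, SE 0.68, adjusted p 0.0153), and the fall was present with library-size scaling (-2.84) and with transduction-gene scaling (-3.91). It was not called in Olfr1507 over Olfr73 (-1.45, SE 0.66, adjusted p 0.115) or in Olfr73 over Olfr160 (-0.99, SE 0.64, adjusted p 0.310). In Olfr1507 over Olfr73, DESeq2 gave -1.49 with an adjusted p of 0.0461, and transduction-gene scaling also called Hspa1a lower. Leaving out 1 library at a time, Olfr1507 over Olfr160 ranged over -2.85 to -2.02 with adjusted p up to 0.0439.

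Hspa1b (chr17:34956436-34959238, minus strand), the tandem copy of Hspa1a, was near 0 in the same tables. It held 0, 26.2 and 13.2 expected counts in Olfr1507, 5.15, 4.07 and 0 in Olfr73, and 3.62, 5.29 and 6.84 in Olfr160, and did not pass the filter. Of all 50-base words in the Hspa1a transcript, 58.8% also occurred in the Hspa1b transcript, so the division of reads between the copies is uncertain even though their upstream windows are nearly identical. The sum of the pair, which does not depend on that division, was 8.26, 11.2 and 2.96 normalised CPM in Olfr1507, 33.8, 16.9 and 7.04 in Olfr73, and 18.6, 44.9 and 51.4 in Olfr160. The summed pair fell in Olfr1507 relative to Olfr160 by a log2 fold change of -2.35 (SE 0.65, adjusted p 0.0148), and was not called in Olfr1507 over Olfr73 (-1.36, adjusted p 0.121) or Olfr73 over Olfr160 (-0.99, adjusted p 0.290).

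Dnajb1, the J-domain partner most induced by stress, was also highest in Olfr160. Dnajb1 (chr8:83608193-83612653, plus strand) measured 68.5, 68.6 and 56.2 normalised CPM in Olfr1507, 83.0, 73.5 and 42.6 in Olfr73, and 143, 127 and 117 in Olfr160. The Olfr160 libraries stood above all others, and Olfr1507 and Olfr73 overlapped. Dnajb1 fell in Olfr1507 relative to Olfr160 (-1.0, SE 0.22, adjusted p 0.00534) and in Olfr73 relative to Olfr160 (-0.96, SE 0.22, adjusted p 0.0196), and both were lower under every scaling tried. The call of Olfr73 over Olfr160 was lost without Olfr160 library 1 (adjusted p 0.0622) or Olfr160 library 2 (0.0634). Between Olfr1507 and Olfr73 the difference was -0.04 (SE 0.22, adjusted p 0.898), and -0.94 (adjusted p 0.0257) with transduction-gene scaling.

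Hspb1 (chr5:135887919-135889563, plus strand), the small heat shock protein Hsp27, was at or below the limit of counting. It held 0 counts in all 3 Olfr1507 libraries, 3 counts in 1 Olfr73 library, and 2 counts in 1 Olfr160 library. A count of 0 allows up to 0.045 normalised CPM over the Olfr1507 group, a limit of counting error only. Its upstream window carried 2 of the GAA pairs. Sustentacular and gland markers and immune markers were also higher in Olfr160, where Hspa1a and Dnajb1 were high. In Olfr1507 relative to Olfr160, 13 of 13 sustentacular and gland markers and 9 of the 10 immune markers tested fell. Of the 7 respiratory markers tested, 3 rose and 4 fell, and over all genes 27.7% fell. The part of these cell types in the levels of Hspa1a and Dnajb1 was not tested.

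Ratios within a library need no scaling between libraries. The pairs were chosen after the values of the single genes were seen, so the ratios restate those values. They are no separate support and are given without a test. On TPM, Hspa8 over the sum of Hspa1a and Hspa1b was 1816, 1347 and 5166 in Olfr1507, 276, 728 and 1349 in Olfr73, and 301, 153 and 129 in Olfr160. The constitutive form outweighed the inducible pair everywhere, and the Olfr1507 and Olfr160 libraries did not overlap. Dnaja1 over Dnajb1 was 28.9, 24.5 and 33.2 in Olfr1507, 14.95, 21.2 and 29.9 in Olfr73, and 6.95, 9.61 and 10.6 in Olfr160. Such ratios were also taken among Hspa8, Hsp90ab1, Dnaja1 and Hsph1, where TPM and expected counts did not always give the same overlaps. On TPM, Hspa8 over Hsp90ab1 was 2.24 to 2.69 in Olfr1507, 2.18 to 2.63 in Olfr73 and 2.10 to 2.37 in Olfr160, with the 3 groups overlapping, but on expected counts it was 4.05 to 4.28, 3.54 to 4.20 and 2.82 to 3.12, and Olfr160 lay apart. On TPM, Hspa8 over Dnaja1 was 7.66 to 9.12, 7.53 to 8.02 and 5.40 to 5.72 in the same groups, and on expected counts 8.37 to 9.99, 8.48 to 8.96 and 4.83 to 5.50, so that Olfr160 lay apart on both. Olfr160 was thus the lowest group for this ratio. Hspa8 over Hsph1 was 68.3 to 92.5, 80.2 to 117 and 61.5 to 82.1 on TPM, and overlapped, while on expected counts it was 43.8 to 56.3, 48.8 to 73.7 and 30.3 to 38.1, with Olfr160 below the others.

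**Figure D3:**
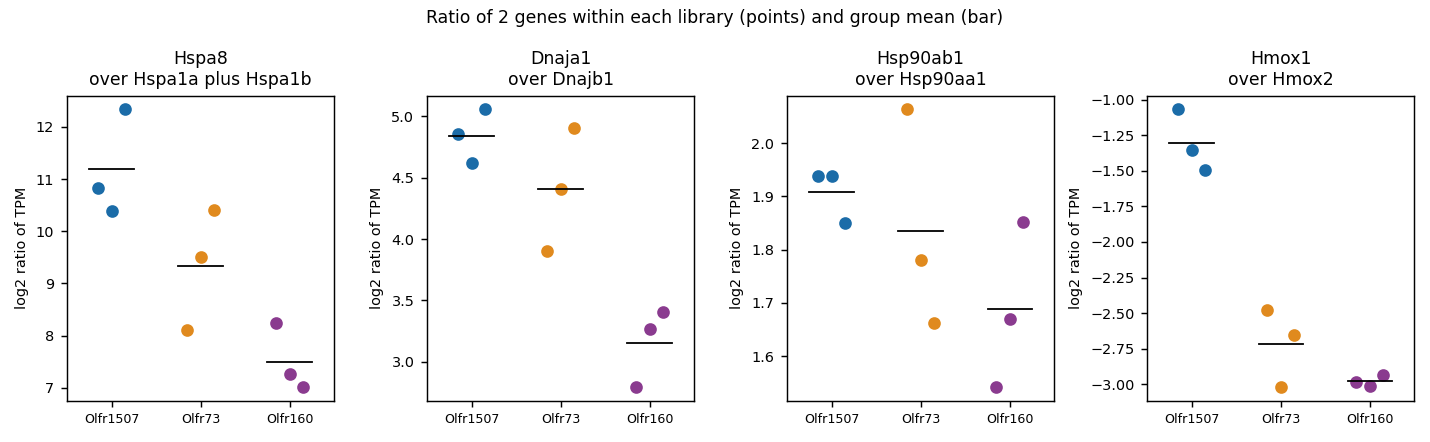
log2 ratio of TPM of 2 genes (y axis) in each of the 3 libraries of a genotype (points) with the group mean (bar). The ratio of Hspa8 to the Hspa1a and Hspa1b sum and that of Dnaja1 to Dnajb1 were lower in Olfr160 than in Olfr1507 with no overlap, the 2 Hsp90 genes overlapped between neighbouring groups on this TPM scale, and Hmox1 over Hmox2 set Olfr1507 apart.

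Hmox1 (chr8:75093621-75100589, plus strand) separated Olfr1507 from both other groups. It measured 125, 110.1 and 100.4 normalised CPM in Olfr1507 libraries, 27.9, 16.3 and 26.3 in Olfr73 libraries, and 17.2, 19.6 and 20.6 in Olfr160 libraries. The lowest Olfr1507 library was more than 3-fold above the highest of the other 6, while Olfr73 and Olfr160 overlapped. Hmox1 rose in Olfr1507 over Olfr160 by a log2 fold change of 2.55 (SE 0.21, 5.85-fold, adjusted p 2.84e-05) and over Olfr73 by 2.25 (SE 0.20, 4.76-fold, adjusted p 0.000110). It was 0.30 (SE 0.20, adjusted p 0.321) in Olfr73 over Olfr160. With transduction-gene scaling both rises were still called, at 0.99 (adjusted p 0.00439) and 1.36 (adjusted p 0.00225), and leaving out 1 library at a time gave 2.47 to 2.63 and 2.07 to 2.40. Hmox1 is strongly expressed in macrophages that clear red blood cells, so markers of those cells are given beside it. The 13 immune markers summed to 2.81 to 6.09 normalised CPM in Olfr1507, 81.5 to 112 in Olfr73 and 248 to 734 in Olfr160, and Csf1r, C1qc and Cd163 had 0 counts in all Olfr1507 libraries. The 7 red blood cell markers summed to 2.68 to 11.9, 5.87 to 64.1 and 86.3 to 587 normalised CPM in the same groups. The immune sums of the 3 groups did not overlap and were lowest in Olfr1507, where Hmox1 was highest, while Hmox1 overlapped between Olfr73 and Olfr160. The red blood cell sums of Olfr1507 and Olfr73 overlapped. The part of either cell type in the level of Hmox1 was not tested.

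The constitutive partner Hmox2, which carries out the same reaction, rose less. Hmox2 averaged 248 ± 9.90 normalised CPM in Olfr1507, 137 ± 13.5 in Olfr73 and 133 ± 16.5 in Olfr160 (SD, n = 3 each). It rose in Olfr1507 over Olfr160 (0.90, adjusted p 0.000364) and over Olfr73 (0.85, adjusted p 0.000924), but with transduction-gene scaling it was lower, at -0.65 and -0.040. Within libraries the TPM ratio of Hmox1 to Hmox2 was 0.477, 0.390 and 0.355 in Olfr1507, 0.179, 0.123 and 0.159 in Olfr73, and 0.126, 0.124 and 0.131 in Olfr160. Hmox2 thus stayed the more abundant of the 2 oxygenases in all 9 libraries, and the Olfr1507 ratios were above all the others.

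Other steps of heme handling gave mixed calls. Of 9 listed genes of heme breakdown and iron storage, 1 rose and 2 fell in Olfr1507 over Olfr160, 3 rose and 1 fell in Olfr1507 over Olfr73, and 0 rose and 2 fell in Olfr73 over Olfr160, with medians of 0.34, 0.28 and -0.39. With transduction-gene scaling 0 rose and 7, 3 and 5 fell. Under that scaling 13888, 9251 and 4936 of all 16399 tested genes fell in the 3 comparisons. With TMM scaling 20.7%, 14.5% and 7.45% of all genes rose and 27.7%, 19.9% and 10.5% fell. Blvrb, a biliverdin reductase abundant in red blood cells, fell to 1.20 normalised CPM in Olfr1507, against 9.59 in Olfr73 and 48.0 in Olfr160 (-2.95 and -5.27, adjusted p 0.000971 and 3.49e-05). Blvra, the main biliverdin reductase, was not called with TMM scaling (0.34 against Olfr160 and 0.28 against Olfr73). Transduction-gene scaling turned Blvra to -1.21 (adjusted p 0.00156) and -0.61 (not called). The ferritin light chain Ftl1 fell in Olfr1507 relative to Olfr160 (-1.53, adjusted p 0.000593) and not detectably relative to Olfr73 (-0.31, adjusted p 0.292). Transduction-gene scaling called Ftl1 lower relative to Olfr73 as well (-1.20, adjusted p 0.015). The ferritin heavy chain Fth1, which has many processed copies and is therefore uncertain, rose only against Olfr73 (1.86, adjusted p 0.0168) among the 3 comparisons, a call lost with transduction-gene scaling (0.96). Slc48a1, a heme transporter of endosomes, was higher in Olfr1507 than in Olfr73 (0.57, adjusted p 0.0189) but was 0.25 (adjusted p 0.224) with library size alone and -0.32 with transduction-gene scaling. In Olfr1507 over Olfr160 the iron exporter Slc40a1 was not called with TMM scaling (0.305 against 2.68 normalised CPM). Nor were the heme exporter Flvcr1 (-0.71) and the transporter Abcg2 (0.86). With library size alone Flvcr1 was called lower there (-1.14, adjusted p 0.0184). With transduction-gene scaling Slc40a1 (-4.70, adjusted p 0.0143) and Flvcr1 (-2.31, adjusted p 0.000867) were called lower, and Abcg2 was -0.71 (not called).

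Among the enzymes of heme synthesis every call was lower. Of 9 genes, 0 rose and 4 fell in Olfr1507 over Olfr160, and 0 rose and 1 fell in Olfr1507 over Olfr73. In Olfr73 over Olfr160, 0 rose and 5 fell. The medians were -0.34, 0.11 and -0.89 in the 3 comparisons, where 27.7%, 19.9% and 10.5% of all genes fell. Alas1, the rate-limiting enzyme outside red blood cells, averaged 57.7 normalised CPM in Olfr1507, 127 in Olfr73 and 431 in Olfr160. Alas1 fell in Olfr1507 relative to Olfr160 (-2.90, adjusted p 2.05e-05) and relative to Olfr73 (-1.14, adjusted p 0.00326). Alas2, its counterpart of red blood cells, is in this list and also in that of the red blood cell markers above.

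The first of the listed regulators of Hmox1 is Nfe2l2, which encodes Nrf2. Nfe2l2 averaged 899.6 ± 49.4 normalised CPM in Olfr1507, 533 ± 49.6 in Olfr73 and 428 ± 79.8 in Olfr160 (SD, n = 3 each). It rose in Olfr1507 over Olfr160 (1.07, adjusted p 0.000416) and over Olfr73 (0.75, adjusted p 0.00435), but with transduction-gene scaling the values were -0.46 and -0.13. Keap1, the adaptor that marks Nrf2 for destruction, was higher in Olfr1507 than in Olfr73 (0.81, adjusted p 0.0442), with 0.50 (adjusted p 0.149) under library size alone and -0.081 under transduction-gene scaling. Bach1, the repressor of Hmox1, was not called in any comparison with TMM scaling (5.47 normalised CPM in Olfr1507, 3.51 in Olfr73 and 4.50 in Olfr160). Transduction-gene scaling turned Bach1 from 0.28 to -1.27 (adjusted p 0.0422) in Olfr1507 over Olfr160. Its relative Bach2 fell to 0.187 normalised CPM in Olfr1507, against 3.98 in Olfr160 (-4.35, adjusted p 0.00285) and 1.70 in Olfr73 (-3.13, adjusted p 0.0171). Of the small Maf partners, Mafg was lower in Olfr1507 than in Olfr73 (-0.66, adjusted p 0.0162). Mafk (0.30) and Maff (-2.91) were not called there with TMM scaling. Maff was called lower with library size alone (-3.22, adjusted p 0.0377). With transduction-gene scaling both Mafk (-0.59, adjusted p 0.0456) and Maff (-3.76, adjusted p 0.017) were called lower. In all, 1 of the 7 regulators rose and 1 fell in Olfr1507 over Olfr160, and 2 rose and 2 fell in Olfr1507 over Olfr73. In Olfr73 over Olfr160, 1 rose and 0 fell. The shares over all genes were 20.7%, 14.5% and 7.45% higher and 27.7%, 19.9% and 10.5% lower in the 3 comparisons.

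Among other genes activated by Nrf2, more fell than rose. This also held over all genes, with 20.7%, 14.5% and 7.45% higher and 27.7%, 19.9% and 10.5% lower in the 3 comparisons. Of 20 listed antioxidant genes, 1 rose and 10 fell in Olfr1507 over Olfr160, 4 rose and 9 fell in Olfr1507 over Olfr73, and 2 rose and 8 fell in Olfr73 over Olfr160, with medians of -1.02, -0.51 and -0.47. Nqo1, a quinone reductase that also marks the dorsal zone of the epithelium, averaged 4.19 normalised CPM in Olfr1507, 811 in Olfr73 and 731 in Olfr160 (-7.54 and -7.39 for Olfr1507 over Olfr73 and over Olfr160). Gstm1, a glutathione transferase, averaged 42.5, 438 and 2306 normalised CPM in the same order of groups (-3.36 and -5.76). Prdx1, a peroxiredoxin, was higher in Olfr1507 than in Olfr73 (1.13, adjusted p 0.00422), which transduction-gene scaling reduced to 0.24. Against Olfr160, Prdx1 was not called with TMM scaling (-0.38). It was called lower there with library size alone (-0.82, adjusted p 0.0205) and with transduction-gene scaling (-2.04, adjusted p 0.000634). The sustentacular and gland markers moved in the direction of Gstm1, and their part in the counts of this list was not tested.

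**Figure D4:**
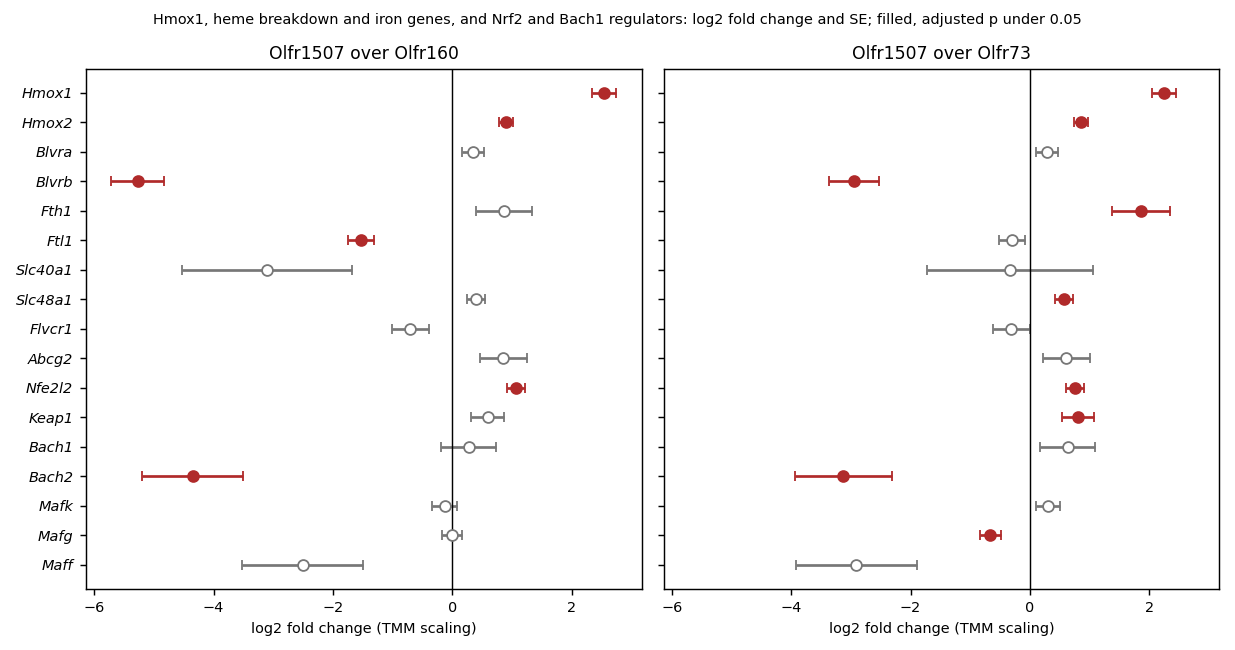
log2 fold change with TMM scaling (x axis) and SE (whiskers) of Hmox1, the 9 genes of heme breakdown and iron storage and the 7 regulators, for Olfr1507 over Olfr160 (left) and over Olfr73 (right), with filled red points at an adjusted p under 0.05. Hmox1 had the highest fold change of the 17 genes in both panels, and Blvrb and Bach2 the lowest values among those called.

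Beyond the 10 genes, the calls of the wider set of cytosolic chaperones depended on scaling. Of 37 further chaperones and co-chaperones, 22 rose and 3 fell in Olfr1507 over Olfr160, 20 rose and 2 fell in Olfr1507 over Olfr73, and 2 rose and 5 fell in Olfr73 over Olfr160, but the first counts became 6 and 5 with library-size scaling and 0 and 35 with transduction-gene scaling. The medians were 0.43, 0.38 and -0.04 with TMM scaling. Under it 20.7%, 14.5% and 7.45% of all genes rose and 27.7%, 19.9% and 10.5% fell. In Olfr1507 over Olfr160, 1343 of all 16399 tested genes rose and 6262 fell with library-size scaling. With transduction-gene scaling 116 rose and 13888 fell. Ppid, a cyclophilin that works with Hsp90, rose in Olfr1507 over Olfr160 (0.73, adjusted p 0.000256) and over Olfr73 (0.41, adjusted p 0.00839), and turned to -0.82 and -0.48 with transduction-gene scaling. The Ppid call over Olfr73 was also lost with library size alone (0.096, adjusted p 0.361). Hspa2, an Hsp70 best known from testis, averaged 56.6 ± 8.24 normalised CPM in Olfr1507, 13.1 ± 4.56 in Olfr73 and 30.2 ± 0.964 in Olfr160. It rose in Olfr1507 over Olfr73 (2.11, adjusted p 0.000265) with all 3 scalings. Its rise over Olfr160 (0.91, adjusted p 0.00877) was called with TMM scaling only, at 0.48 (adjusted p 0.109) with library size alone and -0.67 with transduction-gene scaling. Bag2, an Hsp70 exchange factor, and Fkbp4, an immunophilin of the Hsp90 complex, likewise rose against Olfr73 (1.78 and 1.36, and 0.89 and 0.47 with transduction-gene scaling, the second not called) and by less against Olfr160 (0.63 and 0.46, turned to -0.95 and -1.13 by transduction-gene scaling). With library size alone the calls against Olfr160 were lost, at 0.21 (adjusted p 0.455) for Bag2 and 0.04 (adjusted p 0.854) for Fkbp4. The genes that fell relative to Olfr160 were Hspb8, Cryab and Bag5, and those that fell relative to Olfr73 were Hspb8 and Cryab. Bag5, a co-chaperone of Hsp70 named after its values were seen, averaged 19.4 normalised CPM in Olfr1507 and 31.9 in Olfr160 (-0.72, adjusted p 0.00703). Hspb8 fell to 1.34 ± 0.296 normalised CPM in Olfr1507, against 18.1 ± 10.8 in Olfr73 and 96.3 ± 36.8 in Olfr160 (adjusted p 0.000920 and 4.77e-05). Cryab, the alpha-B crystallin, fell to 0.447 ± 0.299 normalised CPM in Olfr1507, against 6.35 ± 3.55 in Olfr73 and 25.2 ± 10.6 in Olfr160 (adjusted p 0.00197 and 0.000147). The sustentacular and gland sums given above had the same order of groups, as did the 14 markers of glia, stroma and vessels (17.7 to 25.2, 113 to 315 and 561 to 1019 normalised CPM in Olfr1507, Olfr73 and Olfr160), and their part in Hspb8 and Cryab was not tested.

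Of the heat shock factors, 3 of 5 were measured well enough to test. Hsf1, the master activator of the heat shock response, averaged 38.6 normalised CPM in Olfr1507, 29.2 in Olfr73 and 22.2 in Olfr160. Hsf1 rose in Olfr1507 over Olfr160 (0.80, adjusted p 0.00384), but was 0.38 (adjusted p 0.0693) with library size alone and -0.75 with transduction-gene scaling, and was not called against Olfr73 (0.41, adjusted p 0.0802). Hsbp1 binds heat shock factor 1. With TMM scaling neither Hsf2 (-0.99, adjusted p 0.0514) nor Hsbp1 (0.02, adjusted p 0.857) was called in Olfr1507 over Olfr160. Both were called lower there with library size alone, at -1.42 (adjusted p 0.0143) for Hsf2 and -0.40 (adjusted p 0.0109) for Hsbp1. Transduction-gene scaling also called both lower, at -2.56 (adjusted p 0.00057) and -1.57 (adjusted p 0.000165). Hsf4 had 0 counts in Olfr1507 and Olfr73 and 3 in Olfr160, and Hsf5 had 4, 27 and 12.

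Over all genes the shares in the 3 comparisons were 20.7%, 14.5% and 7.45% higher and 27.7%, 19.9% and 10.5% lower. Beside these, chaperones of other compartments gave mixed counts. Among 10 of the endoplasmic reticulum, 4 rose and 2 fell in Olfr1507 over Olfr160, 4 rose and 0 fell over Olfr73, and 0 rose and 3 fell in Olfr73 over Olfr160. Hspa5 (BiP) and Hsp90b1 (GRP94) rose in Olfr1507 over Olfr160 (0.72 and 0.95), reversed by transduction-gene scaling to -0.84 and -0.61, and over Olfr73 (0.96 and 1.11, not called at 0.08 and 0.22 with transduction-gene scaling), while the J-domain gene Dnajb9 rose by 1.83 and 1.87 and was 0.34 (not called) and 0.98 with transduction-gene scaling. With library size alone the Hspa5 call over Olfr160 was lost (0.31, adjusted p 0.0969). Hyou1, an exchange factor of BiP, fell relative to Olfr160 (-1.24, adjusted p 0.00158) and was not called relative to Olfr73 with TMM scaling (-0.07). Transduction-gene scaling called Hyou1 lower relative to Olfr73 as well (-0.95, adjusted p 0.00926). Among 9 mitochondrial chaperones, 1 rose and 2 fell, 1 rose and 0 fell, and 0 rose and 1 fell in the 3 comparisons. The riser was Dnaja3 (0.96 and 1.02, and -0.56 and 0.13 with transduction-gene scaling), whose call over Olfr160 was lost with library size alone (0.54, adjusted p 0.0570), and Trap1 (-0.62) and Hspe1 (-1.09) fell relative to Olfr160.

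**Figure D5:**
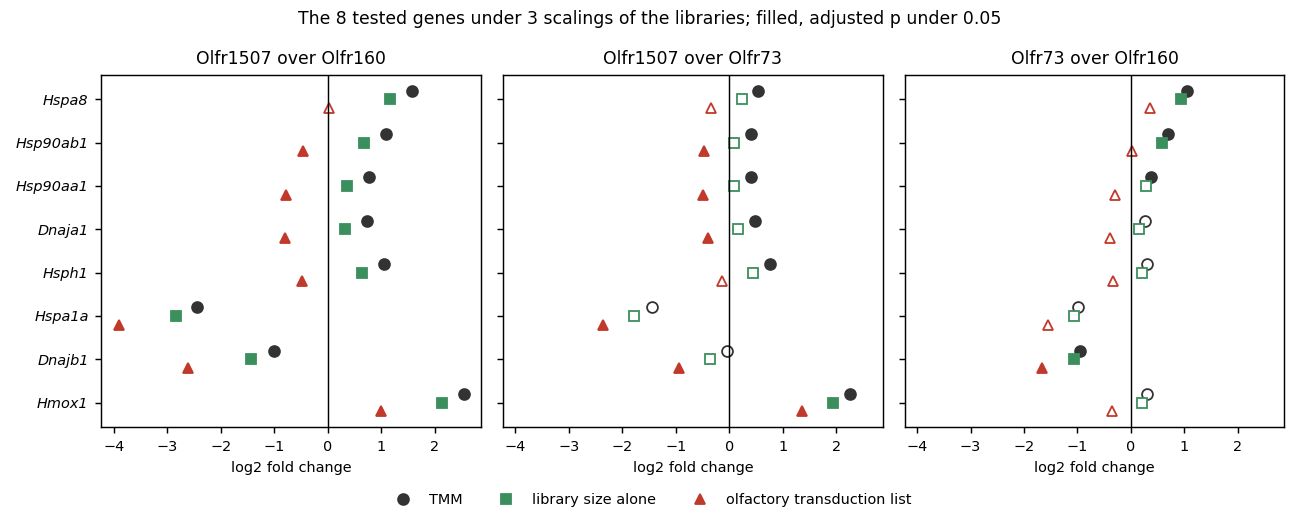
log2 fold change (x axis) of the 8 tested genes under TMM scaling (circles), library size alone (squares) and scaling to 18 olfactory transduction genes (triangles), filled at an adjusted p under 0.05. Hmox1 in both comparisons with Olfr1507 and Hspa1a and Dnajb1 in Olfr1507 over Olfr160 kept their side and their call under all 3 scalings, while Hsp90aa1, Hsp90ab1, Hsph1 and Dnaja1 in Olfr1507 over Olfr160 changed sign under the last.

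The genes whose pattern over the 9 libraries lay nearest to a given gene, by the root mean square (RMS) difference of centred log2 normalised CPM among 7791 candidates, are a description with no test. For Hmox1 they were Gpt2 (RMS difference 0.22), Ppp3ca (0.23) and Arhgap42 (0.24). Gpt2, a mitochondrial alanine transaminase, averaged 244 normalised CPM in Olfr1507, 53.5 in Olfr73 and 53.3 in Olfr160, and thus separated Olfr1507 from the rest like Hmox1. For Hspa8 they were Abhd14a (0.13), Tmbim6 (0.14) and Chaf1a (0.15), and for Hsp90aa1 Nek1, Golga3 and AU040320 (0.06 to 0.08). For Dnaja1 they were Supt7l, Dph6 and Poll (0.06 to 0.07), and for Hsph1 Arsa, Srp68 and Mars1 (0.10 to 0.12). For Dnajb1 they were Lrch4, Tbcel and Pon2 (0.13 to 0.14), and for Hspa1a St14, Tmem47 and Dclk1 (0.54 to 0.64), the loosest match. St14 averaged 3.72 normalised CPM in Olfr1507, 9.29 in Olfr73 and 19.9 in Olfr160, in the order of the Hspa1a means.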

How the data were processed

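Polyadenylated RNA of 9 libraries, 3 per genotype, was measured. Per the submitters' processing notes, reads were processed with STAR 2.6.1, RSEM 1.3.1 and DESeq2 on mm10. The annotation release is not given in the sources used here, and 98.7% of the transcript identifiers in the tables were found in GENCODE M21, the source of gene coordinates. The deposited values are RSEM expected counts and, in a second table, TPM made by the authors.

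The test was the robust quasi-likelihood F test of edgeR 4.0.16 (R 4.3.3), run on the rounded expected counts of all 9 libraries with a mean per group, after filterByExpr and TMM. P-values were adjusted by Benjamini-Hochberg over 16399 genes, with a threshold of 0.05. SE is the log2 fold change divided by the square root of F. TPM was used for levels between genes and for ratios. Limma 3.58.1 and DESeq2 1.42.0 were alternatives. The fit was tested on simulated data. Libraries of 17212807 to 36230606 counts put 3 counts, the floor for a 0, at 0.099 to 0.167 normalised CPM.

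The 10 genes and all lists were chosen with earlier results of these data known. Beside the 10 genes, the rule took up to 3 called genes of the lowest adjusted p per list and comparison, all heat shock factors, heme breakdown genes and regulators, and the 3 genes of most alike pattern per member. The text names part of these, picked after their values were seen, and gives the immediate early genes only as counts. Some single-gene results, with the genes most like Hsp90ab1, are not reported here. The main test did not pair libraries by replicate number, and the sources used here do not say whether they were paired. The series text speaks of duplicates where 3 libraries per group were given.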

Additional observations from a re-analysis of the deposited data

How the results depend on the processing

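Hmox1 in Olfr1507 over Olfr160 and over Olfr73 kept its direction and its call under all alternatives run, and Hspa1a and Dnajb1 in Olfr1507 over Olfr160 kept their direction under all of them. The chaperone counts depended on how libraries were scaled, and the cause was not tested. Counts follow as higher or lower calls of the 8 tested genes and of all genes.

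With library size alone, 1 of the 8 was higher in Olfr1507 over Olfr73, all genes had 1343 higher calls in Olfr1507 over Olfr160 and 1047 in Olfr1507 over Olfr73, and Hsbp1 turned to -0.40 in Olfr1507 over Olfr160. Scaled to the transduction genes, 1 was higher and 6 lower in Olfr1507 over Olfr160 (all genes 116 and 13888), 1 higher and 5 lower in Olfr1507 over Olfr73 (354 and 9251), and 0 higher in Olfr73 over Olfr160 (99 higher and 4936 lower over all genes). Under that scaling the signs turned in Olfr1507 over Olfr160 for Hsp90aa1 (-0.78), Hsp90ab1 (-0.45), Hsph1 (-0.48), Dnaja1 (-0.80), Hspa2 (-0.67), Bag2 (-0.95), Fkbp4 (-1.13), Ppid (-0.82), Hsf1 (-0.75), Hsbp1 (-1.57), Hspa5 (-0.84), Hsp90b1 (-0.61), Dnaja3 (-0.56), Hmox2 (-0.65), Blvra (-1.21), Slc48a1 (-1.18), Nfe2l2 (-0.46), Keap1 (-0.91) and Bach1 (-1.27). They turned in Olfr1507 over Olfr73 for Hspa8 (-0.34), Hsp90aa1 (-0.49), Hsp90ab1 (-0.48), Hsph1 (-0.13), Dnaja1 (-0.40), Ppid (-0.48), Hsbp1 (-0.82), Hmox2 (-0.040), Slc48a1 (-0.32), Nfe2l2 (-0.13), Keap1 (-0.081) and Mafk (-0.59), and in Olfr73 over Olfr160 for Hsp90aa1 (-0.29), Ppid (-0.35) and Hmox2 (-0.61). Only genes called with TMM or transduction-gene scaling in that comparison are listed. Signs also turned without a call under either, as for Fth1 (-0.61) and Abcg2 (-0.71) in Olfr1507 over Olfr160.

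A filter of 5 CPM in 3 libraries, which tests fewer genes, left 2836 lower calls over all genes in Olfr1507 over Olfr160. DESeq2 called 1 of the 8 lower in Olfr1507 over Olfr73 and 2702 of all genes lower in Olfr73 over Olfr160. Limma-trend on log2(TPM + 1) gave 2115 higher calls in Olfr1507 over Olfr160, 1420 in Olfr1507 over Olfr73, 3 of them among the 8, and 3095 lower calls in Olfr73 over Olfr160. With a pseudocount of 0.1 it gave 2099, 1474 and again 3. With only the 6 libraries compared, Olfr73 over Olfr160 had 658 higher calls and 0 lower among the 8.

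At an adjusted p of 0.01, the 8 genes gave 1 lower in Olfr1507 over Olfr160, 1 higher in Olfr1507 over Olfr73 and 0 lower in Olfr73 over Olfr160, and all genes 2172 higher and 2797 lower, 1205 and 1632, and 261 and 508. With an absolute log2 fold change of at least 1, the 8 genes gave 1 lower in Olfr1507 over Olfr160, 1 higher in Olfr1507 over Olfr73, and 1 higher and 0 lower in Olfr73 over Olfr160, and all genes 1052, 781 and 267 higher.

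Leaving out each library in turn gave 2 to 6 higher calls among the 8 in Olfr1507 over Olfr73, and 2 to 3 higher and 0 to 1 lower in Olfr73 over Olfr160. Over all genes the ranges were 2686 to 3658 higher and 3622 to 5232 lower in Olfr1507 over Olfr160, 1569 to 2535 and 2088 to 3229 in Olfr1507 over Olfr73, and 319 to 1458 and 657 to 1739 in Olfr73 over Olfr160. Without Olfr73 library 2, Slc40a1 was 5.80 in Olfr1507 over Olfr73, a fitted value that is no bound, since the other Olfr73 libraries held 0 counts.

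Same-numbered libraries did not deviate together (correlations of -0.215 to 0.137). Such correlations cannot exclude that they shared a preparation, on which the labels are silent. With the replicate number as a block, 6 of the 8 were higher and 2 lower in Olfr1507 over Olfr160, 6 and 0 in Olfr1507 over Olfr73, and 2 and 1 in Olfr73 over Olfr160, where Hsp90aa1 had an adjusted p of 0.0675. Depth limits Hspa1b and Hspb1, which stayed at or near the floor of 3 counts in most libraries.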

Other observations

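The immediate early genes, which are transcribed within minutes of a stimulus and include Fos, Jun and Egr1, were counted beside the inducible chaperones. Of 19 tested, 0 rose and 12 fell in Olfr1507 over Olfr160, 2 rose and 7 fell in Olfr1507 over Olfr73, and 0 rose and 9 fell in Olfr73 over Olfr160, with medians of -2.31, -1.04 and -1.30 on the log2 scale. Over all genes tested 27.7%, 19.9% and 10.5% fell in the 3 comparisons. Sustentacular and gland markers and immune markers were lowest in Olfr1507 and highest in Olfr160. In Olfr1507, Olfr73 and Olfr160 libraries the 13 sustentacular and gland markers summed to 452 to 715, 4706 to 8702 and 22751 to 39723 normalised CPM. The 13 immune markers summed to 2.81 to 6.09, 81.5 to 112 and 248 to 734. The 8 microvillar and brush markers (126 to 167, 66.7 to 137 and 352 to 386) did not keep that order. Sums of the 8 respiratory markers (714 to 811, 788 to 903 and 712 to 1241) overlapped. The part of any of these cell types in the immediate early counts was not tested.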
